A study of Mus musculus with 8 samples.

Results

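Hedgehog pathway genes were examined in newborn mouse epidermis that lacks Eed, a subunit of the Polycomb repressive complex PRC2. The genes were Shh, Ptch1, Hhip, Boc, Smo, Sufu, Gli1, Gli2 and Gli3, chosen by name and found on the arrays through the RefSeq accessions of their probes. They are 9 of the 36799 genes and other targets on the array and have 12 probes. A total of 8 of the 9 genes had a probe bright enough to be tested. RNA came from P0 back skin epidermis of C57BL/6 mice, 4 EED cKO and 4 control, with 100 ng of total RNA per sample. In EED cKO mice Eed carries floxed alleles and is deleted by Cre under the Krt14 promoter, which drives expression in basal keratinocytes, so cells of other origin in the sample keep the gene. The labels of the control mice give no alleles. Each sample was hybridized against Universal Mouse Reference RNA, a commercial mixture that was the same on every array, with the sample in Cy3 on arrays 1 and 3 and in Cy5 on arrays 2 and 4 of both genotypes.

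Hedgehog ligands are secreted proteins that bind Patched receptors. Binding releases the membrane protein Smoothened from inhibition, and Smoothened in turn stops the processing of Gli transcription factors into repressors, so that Gli activators switch on their targets. Ptch1, Hhip and Gli1 are themselves widely used as targets of the pathway. In the developing skin, Shh is made by the epithelium of the hair placode and hair follicle, and it signals to the follicle epithelium and to the underlying dermal condensate and papilla.

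All values are log2 ratios of sample over reference, so a value of 0 means a signal equal to that of the reference RNA. The ratios of different genes depend on the reference as well as on the sample and do not rank their expression. In the sample channel, 51.5% to 65.5% of spots per array were well above background. Eed itself was lower on all 4 EED cKO arrays, at −2.04 to −1.66 against −0.46 to −0.18 on control arrays. Each genotype filled a slide row of its own, so row and genotype cannot be told apart. The mean log2 ratio of 4 Y-linked genes was 1.19 and 1.02 on control arrays 2 and 3 and below −1.30 on the other 6 arrays, so that Y-linked signal was read on 2 control and 0 EED cKO arrays. Across all 23238 features tested, 21.7% had an adjusted p below 0.05 in limma with Benjamini-Hochberg adjustment, 9.91% lower and 11.8% higher in EED cKO, and 1.2% also differed at least 2-fold. Of all calls with an adjusted p below 0.05, with no fold limit, 45.7% were lower in EED cKO. The share was 60.2% when arrays were centred on their median in place of loess normalization.

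The Gli2 and Gli3 promoters are shown because these Gli factors were both lower in EED cKO and both have a promoter in the RefSeq table, on GRCm38.p6. Each is given 5′ to 3′ for the 250 bases before the start of the gene, with every CG dinucleotide in capitals. The Gli2 stretch is chr1:119053620-119053869 on the minus strand and the Gli3 stretch is chr13:15463473-15463722 on the plus strand.

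Gli2: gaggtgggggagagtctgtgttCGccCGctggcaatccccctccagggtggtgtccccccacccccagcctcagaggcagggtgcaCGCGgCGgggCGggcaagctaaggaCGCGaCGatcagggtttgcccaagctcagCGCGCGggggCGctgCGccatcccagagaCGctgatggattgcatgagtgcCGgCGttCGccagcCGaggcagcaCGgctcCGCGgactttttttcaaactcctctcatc

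Gli3: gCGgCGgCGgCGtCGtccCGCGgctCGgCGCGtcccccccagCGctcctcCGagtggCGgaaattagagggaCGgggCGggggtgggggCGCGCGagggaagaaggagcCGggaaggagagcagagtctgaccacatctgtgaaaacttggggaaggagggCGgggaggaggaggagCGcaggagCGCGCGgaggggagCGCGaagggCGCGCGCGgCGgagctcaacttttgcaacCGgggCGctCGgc

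The Gli2 stretch holds 22 CG dinucleotides and the Gli3 stretch 34, compared with a median of 6 over the 32851 promoters of the table. A total of 6 of the 9 genes had a promoter there. Ptch1, which did not pass the test, has 41, Hhip 28, Smo 15 and Sufu 8, so a high CG content was not limited to the genes that were lower. The Gli binding sequence GACCACCCA, searched on both strands, was in 0 of the 6 stretches and in 0.225% of all promoters. A missing match says only that these letters are not in this window.

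Of the 8 genes tested, 3 were lower in EED cKO, namely the ligand Shh and the transcription factors Gli2 and Gli3, and 0 were higher. This is 37.5% of the genes tested, beside 9.91% of all features called lower. The median log2 fold change of the 8 genes was −0.25, beside 0.02 for all features. None of the 8 reached 2-fold on this scale. In bulk RNA, a smaller number of cells of a type and less RNA per cell cannot be told apart.

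**Figure D1:**
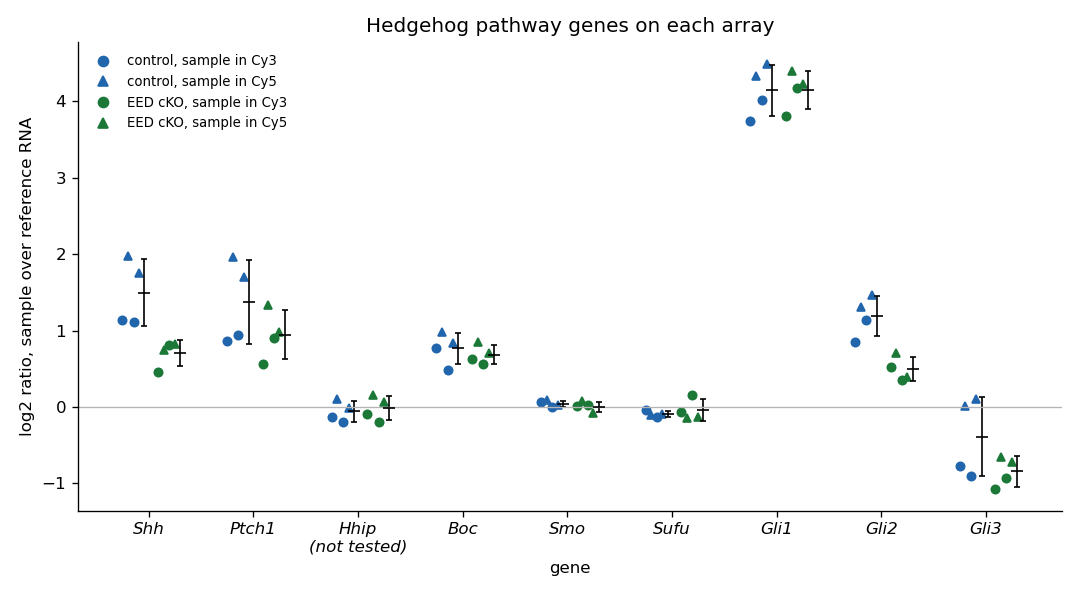
Log2 ratio of sample over reference RNA (y axis) on each of the 8 arrays for the 9 hedgehog pathway genes (x axis), with circles for samples in Cy3 and triangles for samples in Cy5, and bars for the mean ± SD of 4 arrays. EED cKO arrays lie below all control arrays for Shh and Gli2, whereas the groups overlap for the other genes.

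Shh, the ligand, was read by 1 probe printed in 10 spots. The log2 ratios were 0.46, 0.75, 0.80 and 0.82 on EED cKO arrays 1 to 4. On control arrays 1 to 4 they were 1.14, 1.98, 1.11 and 1.76. Every EED cKO array lay below every control array, and control arrays 2 and 4, with the sample in Cy5, were the highest. Groups that did not overlap with EED cKO lower were found for 7.49% of all features. EED cKO arrays averaged 0.71 ± 0.17 (SD, n = 4) against 1.496 ± 0.436 (SD, n = 4) for the controls, a log2 fold change of −0.79 with a standard error of 0.13 and a 95% interval from −1.08 to −0.50 (limma, adjusted p = 0.00369). Shh was thus 1.73-fold lower on this scale. The exact two-sided permutation test over the 8 arrays gave p = 0.0286, the smallest that 4 against 4 arrays allow. The difference was −0.50 within the Cy3 arrays and −1.08 within the Cy5 arrays, with 2 arrays of each genotype per dye and no overlap in either dye. With the Y-linked genes as a covariate it was −0.74 (limma, adjusted p = 0.0197).

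**Figure D2:**
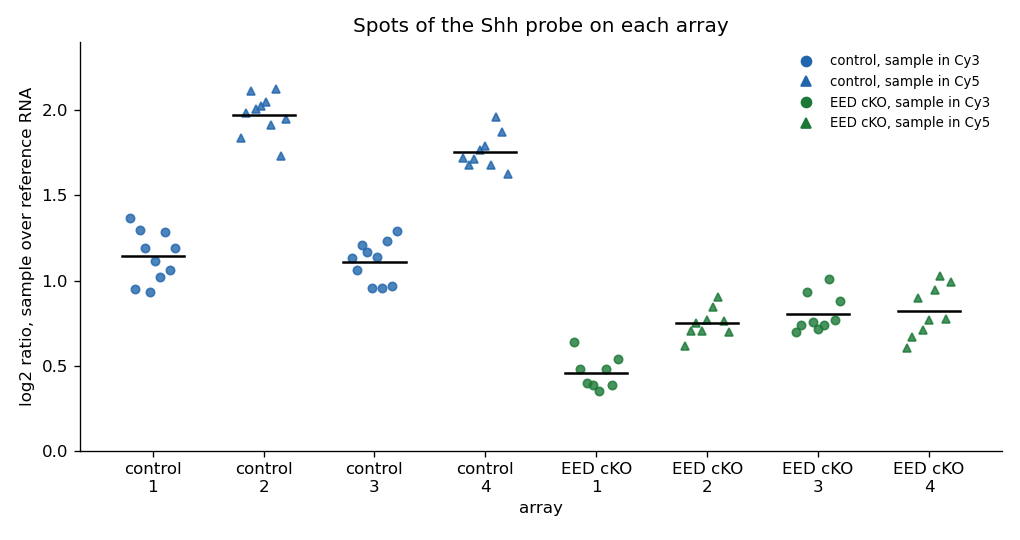
Log2 ratio of sample over reference RNA (y axis) of each spot of the Shh probe on the 8 arrays (x axis), with circles for samples in Cy3, triangles for samples in Cy5 and lines for the mean of an array. Spots of one array vary with an SD of 0.086 to 0.15, and the means of the EED cKO arrays, 0.46 to 0.82, lie below those of the control arrays, 1.11 to 1.98.

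The Shh signal was dim. The median intensity of its spots averaged 48.8, 51.4, 76.5 and 49.6 on EED cKO arrays 1 to 4 and 77.6, 148.8, 91.5 and 117.7 on control arrays 1 to 4, over a local background of 20.8 to 25.8. Above that background, before any normalization, this left 24.5 to 50.7 units in EED cKO and 53.8 to 127.4 in control, without overlap. The sample signal of the probe was well above background on all 8 arrays and the reference signal on 0 of 8, so the ratio of Shh to the reference has no measured denominator and the difference between genotypes comes from the sample channel. With the sample channel alone the log2 fold change was −0.70 (limma, adjusted p = 0.00357). The normexp correction adds an offset of 50 to each channel, which draws the ratios of dim spots towards 0. With an offset of 16 Shh fell by 1.07 (limma, adjusted p = 0.00233), which is past 2-fold. On the log ratio of the scanner software, which has no such offset, Shh fell by 1.41 (limma, adjusted p = 0.00873), which is 2.65-fold. On that log ratio 4 of the 8 genes were lower (Shh, Ptch1, Gli2 and Gli3), beside 8.86% of all features, and Shh and Gli2 also passed 2-fold, beside 0.456%. The methods' t-test gave an unadjusted p of 0.0151 and an adjusted p of 0.115 for Shh on the values with the offset. The methods' own rule is an unadjusted p below 0.05 and 2-fold, which 0 of the 8 genes passed on these values, beside 1.18% of all features. On the scanner software's log ratio Shh, with an unadjusted p of 0.0015 and an adjusted p of 0.0394 in the methods' t-test, and Gli2 passed that rule, beside 3% of all features.

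Among the receptors and co-receptors, none of the 3 genes tested passed the threshold. Ptch1, the receptor that holds Smoothened inactive, gave 0.56, 1.34, 0.91 and 0.98 on EED cKO arrays 1 to 4 and 0.86, 1.97, 0.94 and 1.70 on control arrays 1 to 4. The groups overlapped, and control arrays 2 and 4 were again the highest. EED cKO arrays averaged 0.95 ± 0.32 (SD, n = 4) against 1.37 ± 0.55 (SD, n = 4) for the controls, a log2 fold change of −0.42 with a standard error of 0.14 and a 95% interval from −0.73 to −0.12 (limma, adjusted p = 0.0541). The difference was −0.17 within Cy3 and −0.68 within Cy5 arrays.

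The Ptch1 value lay close to the threshold in the main fit, crossed it under several settings and lay well away from it under others. It passed on the scanner software's log ratio at −0.55 (limma, adjusted p = 0.0392) and with the replicate number as a block (limma, adjusted p = 0.0327). It also passed without EED cKO array 3 (limma, adjusted p = 0.0243) or without control array 1 (limma, adjusted p = 0.0462). The other 6 arrays left out in turn gave no adjusted p below 0.05, and the highest was 0.159.

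Hhip, a membrane protein that binds and sequesters hedgehog ligands, was not tested. The sample signal of one of its 2 probes was not well above background on any array, and that of the other was well above on 1 EED cKO and 2 control arrays. Boc, a co-receptor that promotes ligand binding, averaged 0.68 ± 0.12 (SD, n = 4) on EED cKO arrays against 0.77 ± 0.21 (SD, n = 4) for the controls. Its log2 fold change was −0.08 with a 95% interval from −0.27 to 0.11 (limma, adjusted p = 0.526). Smo, the signal transducer, averaged 0.0047 ± 0.066 (SD, n = 4) on EED cKO arrays against 0.043 ± 0.039 (SD, n = 4) for the controls.

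The Smo difference was −0.04 with a 95% interval from −0.19 to 0.11 (limma, adjusted p = 0.729), and its second probe gave 0.02. Sufu, a cytoplasmic inhibitor that binds Gli proteins, was dim, with a sample signal well above background on 4 EED cKO and 2 control arrays. Its log2 fold change was 0.05 with a 95% interval from −0.12 to 0.23 (limma, adjusted p = 0.676), and its second probe, well above background on 1 of 8 arrays, gave 0.06. For Boc, Smo and Sufu the intervals leave out a 2-fold change in either direction on this scale.

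**Figure D3:**
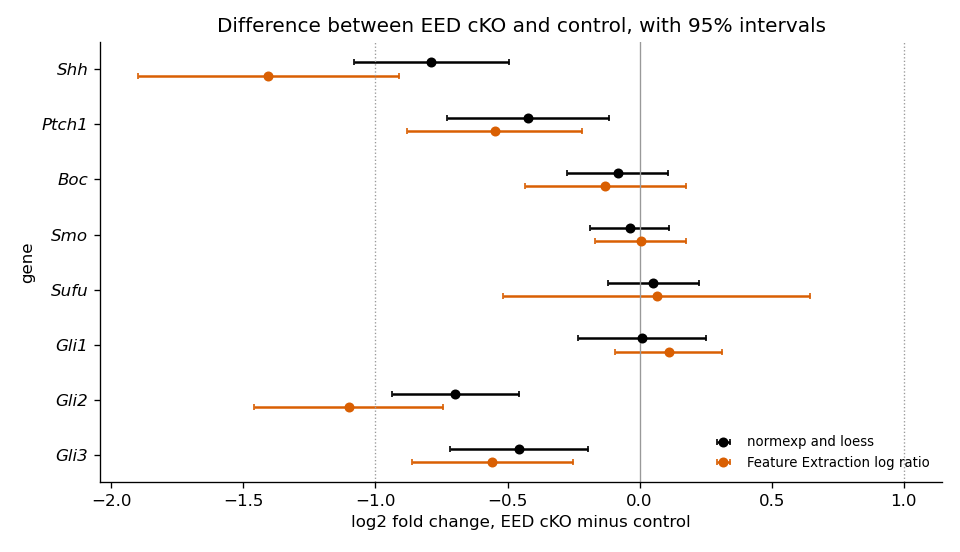
Log2 fold change of EED cKO minus control (x axis) with its 95% interval for the 8 genes tested (y axis), after normexp and loess (black) and on the log ratio of the Feature Extraction software (orange), with dotted lines at 2-fold. The intervals of Shh, Ptch1, Gli2 and Gli3, which are not adjusted for the number of features, lie left of 0 on both scales. Shh and Gli2 pass 2-fold on the second only, at −1.41 and −1.10.

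Of the Gli transcription factors, Gli2 and Gli3 were lower in EED cKO, whereas Gli1 did not pass the test in either direction. Gli1, the activator whose transcription is commonly read as a measure of hedgehog signaling, gave 3.81, 4.40, 4.18 and 4.23 on EED cKO arrays 1 to 4 and 3.74, 4.33, 4.01 and 4.49 on control arrays 1 to 4. The groups overlapped over most of their range. EED cKO arrays averaged 4.15 ± 0.25 (SD, n = 4) against 4.14 ± 0.34 (SD, n = 4) for the controls, a log2 fold change of 0.01 with a standard error of 0.11 and a 95% interval from −0.23 to 0.25 (limma, adjusted p = 0.968). This interval leaves out the differences measured for Shh and Gli2. The sign of the Gli1 difference was not fixed, since it was −0.19 with median centring and −0.25 with the sample channel alone, neither past the threshold. In the reference channel, which held the same RNA on every array, the Gli1 probe differed by −0.33 between EED cKO and control arrays (limma, adjusted p = 0.338, unadjusted 0.00621).

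Gli2, which acts mainly as an activator, gave 0.52, 0.71, 0.35 and 0.40 on EED cKO arrays 1 to 4 and 0.86, 1.31, 1.14 and 1.46 on control arrays 1 to 4. Every EED cKO array lay below every control array. EED cKO arrays averaged 0.49 ± 0.16 (SD, n = 4) against 1.19 ± 0.26 (SD, n = 4) for the controls, a log2 fold change of −0.70 with a standard error of 0.11 and a 95% interval from −0.94 to −0.46 (limma, adjusted p = 0.00276). Gli2 was thus 1.62-fold lower, and 2.15-fold lower on the scanner software's log ratio. The difference was −0.56 within Cy3 and −0.83 within Cy5 arrays, without overlap in either dye. The reference channel differed by 0.01. In that channel and in the sample the Gli2 probe was well above background on all 8 arrays, so unlike Shh its ratio has a measured denominator. Its sample signal was nevertheless dim, with a median intensity of 65 to 213 over a local background of 20 to 22. The size of the Gli2 difference thus also depends on the offset, and was −0.84 with an offset of 16 (limma, adjusted p = 0.00241). The methods' t-test gave an unadjusted p of 0.00386 and an adjusted p of 0.064 for Gli2, and an unadjusted p of 0.00523 and an adjusted p of 0.0688 on the scanner software's log ratio.

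Gli3, which is processed into the main repressor of the pathway when ligand is absent, gave −1.08, −0.65, −0.93 and −0.72 on EED cKO arrays 1 to 4. On control arrays 1 to 4 it gave −0.77, 0.02, −0.90 and 0.10. The groups overlapped, and the control arrays split by dye, with the Cy5 arrays close to 0 and the Cy3 arrays near the EED cKO values. EED cKO arrays averaged −0.84 ± 0.20 (SD, n = 4) against −0.39 ± 0.52 (SD, n = 4) for the controls, a log2 fold change of −0.46 with a standard error of 0.12 and a 95% interval from −0.72 to −0.20 (limma, adjusted p = 0.0218). The difference was −0.17 within Cy3 and −0.74 within Cy5 arrays. Within each dye taken alone the genotypes did not overlap, but in Cy3 the nearest arrays, at −0.93 and −0.90, were close together. The call was lost without the dye term (limma, adjusted p = 0.231) and with the sample channel alone (limma, adjusted p = 0.0567). It was also lost when EED cKO array 2 (limma, adjusted p = 0.0574), EED cKO array 4 (limma, adjusted p = 0.0731), control array 2 (limma, adjusted p = 0.0749) or control array 4 (limma, adjusted p = 0.0558) was left out. The methods' t-test gave an unadjusted p of 0.152 and an adjusted p of 0.376.

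Differences between genes on one array were compared next, so that ligand, receptor and Gli factors could be set against each other. A total of 5 pairs could be compared, each by an exact two-sided permutation test over the 8 arrays with Benjamini-Hochberg adjustment over the 5. Shh minus Ptch1 averaged −0.24 ± 0.23 (SD, n = 4) on EED cKO arrays against 0.13 ± 0.12 (SD, n = 4) for the controls, a difference of −0.37 (exact permutation p = 0.0286, adjusted 0.0476). Shh minus Gli1 differed by −0.80 (exact permutation p = 0.0286, adjusted 0.0476). Gli2 minus Gli1 differed by −0.71 (exact permutation p = 0.0286, adjusted 0.0476). In these 3 pairs the genotypes did not overlap. The ratio of Shh was lower in EED cKO relative to those of Ptch1 and Gli1, as was that of Gli2 relative to Gli1. These are differences of ratios to the reference, so the reference channel enters them as well as the sample. In that channel the Gli1 probe differed by −0.33 between EED cKO and control arrays, beside 0.06 for Shh and 0.01 for Gli2. The 2 differences from Gli1 are therefore not differences of sample RNA alone. Gli3 minus Gli1 differed by −0.47 (exact permutation p = 0.0571, adjusted 0.0714), and Gli2 minus Gli3 by −0.24 (exact permutation p = 0.229).

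The 3 adjusted values lay close to the threshold. All 3 pairs kept their direction but passed it with neither median centring, at −0.22, −0.44 and −0.48, nor the sample channel alone, at −0.28, −0.45 and −0.45. Shh minus Ptch1 also missed it on the scanner software's log ratio (exact permutation test, adjusted p = 0.0571). Each was also lost on leaving out EED cKO array 2, control array 1, control array 2 or control array 4, and Gli2 minus Gli1 also without control array 3, over which the adjusted p reached 0.0952, 0.0714 and 0.0714. Swapping genotypes only within pairs of equal replicate number cannot give an exact p that passes, and there the adjusted value was 0.156 for each.

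**Figure D4:**
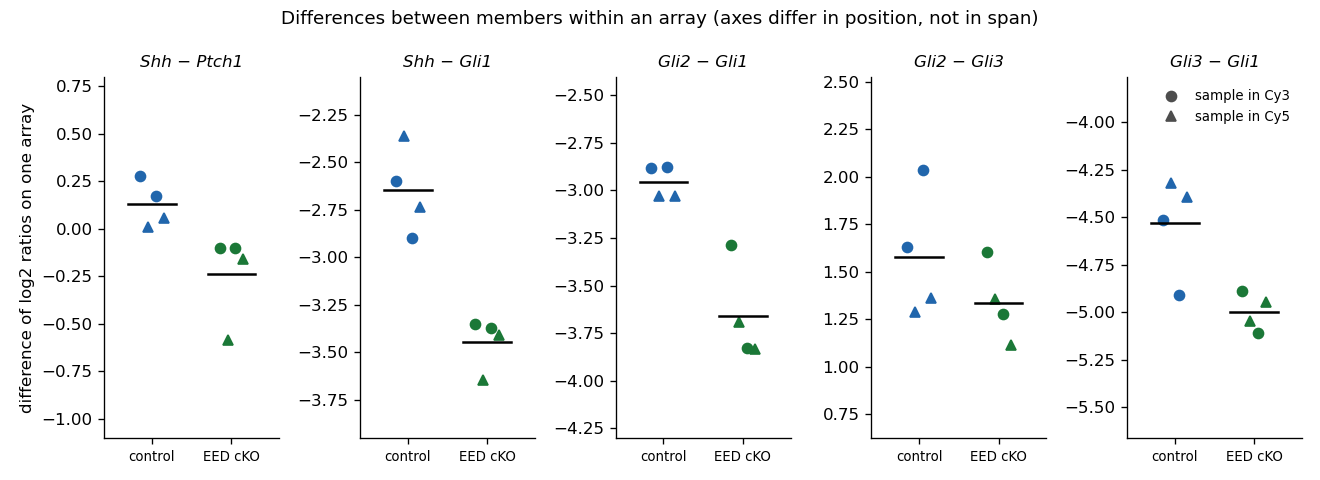
Difference of the log2 ratios of a pair of genes on the same array (y axes, equal in span but not in position) for 4 control (blue) and 4 EED cKO arrays (green) in 5 pairs, with circles for samples in Cy3, triangles for samples in Cy5 and lines for the mean. The genotypes do not overlap for Shh minus Ptch1, Shh minus Gli1 and Gli2 minus Gli1, which differ by −0.37, −0.80 and −0.71.

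A list of 57 other genes of the pathway was examined, and 51 of them passed the filter. In EED cKO 17 were lower and 2 higher, with a median log2 fold change of −0.17, beside 9.91% of all features lower, 11.8% higher and a median of 0.02. The count of 17 lower was not stable. It was 7 with median centring, 2 without the dye term and 4 with the Y-linked covariate. Lower and higher together, 19 passed, against 12 without EED cKO array 3, 10 without EED cKO array 4, 8 without control array 2 and 12 without control array 4. The median was negative under every setting run.

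Among the other receptors and co-receptors, Cdon, a co-receptor related to Boc, gave −1.45, −1.05, −1.51 and −1.28 on EED cKO and −1.26, −0.01, −1.09 and −0.13 on control arrays 1 to 4. As for Gli3, the control arrays with the sample in Cy5 stood apart, and the log2 fold change was −0.70 with a standard error of 0.15 (limma, adjusted p = 0.0112), lost without the dye term (limma, adjusted p = 0.127) and with the Y-linked covariate (limma, adjusted p = 0.0538). A second Cdon probe gave −0.32. Gpc3, a cell surface glypican that competes with Ptch1 for ligand, fell by 0.38 (limma, adjusted p = 0.0415), with overlap of the groups. This call lay close to the threshold, and its values under other settings are not given here. Gas1, a further co-receptor, did not pass the test at 0.14.

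Among the 5 genes of the other ligands and ligand release tested, Disp1, the transporter that releases lipid-modified ligand from the producing cell, fell by 0.41 (limma, adjusted p = 0.0468). The Disp1 call also lay close to the threshold, and its values under other settings are not given here. The ligands Ihh and Dhh did not pass the filter. Of 18 genes that act on Smoothened or the cilium, 4 were lower and 0 higher. That is 22.2% called, close to the 21.7% of all features called in either direction. The ciliary protein Evc2, which binds Smoothened, fell by 0.51 (limma, adjusted p = 0.00925). A second Evc2 probe gave −0.03, and the call was lost with the median of the probes, at −0.27 (limma, adjusted p = 0.0533), and without the dye term (limma, adjusted p = 0.0894). The kinase Csnk1g2 fell by 0.37 (limma, adjusted p = 0.0136), with −0.04 at its second probe. Its call was lost without control array 2 (limma, adjusted p = 0.0513), with the median of its probes (limma, adjusted p = 0.0893), with median centring (limma, adjusted p = 0.0521) and with the Y-linked covariate (limma, adjusted p = 0.0654).

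Of 16 genes that process or phosphorylate Gli proteins, 8 were lower and 0 higher, beside 9.91% and 11.8% of all features. The 16 include the kinases that mark Gli2 and Gli3 for cleavage and the F-box proteins that recognize the mark. None of them acts in this pathway alone, and not all of the kinases passed the test. Csnk1d fell by 0.63 (limma, adjusted p = 0.012), Gsk3b by 0.58 (limma, adjusted p = 0.0178) and Csnk1a1 by 0.41 (limma, adjusted p = 0.00681). A second probe gave −0.28 for Csnk1d and −0.02 for Csnk1a1, whereas the other 2 Gsk3b probes gave −0.37 and −0.51. Without the dye term the adjusted p in limma was 0.261 for Csnk1d, 0.0958 for Gsk3b and 0.0743 for Csnk1a1, so these calls were lost. The Csnk1a1 call was also lost with the median of its probes, at −0.21 (limma, adjusted p = 0.105), and the Csnk1d call with the Y-linked covariate (limma, adjusted p = 0.0558). The F-box protein Fbxw11 fell by 0.51 (limma, adjusted p = 0.00841), without overlap of the groups and with −0.46 at its second probe. Cul1, the scaffold of the ubiquitin ligase, fell by 0.24 (limma, adjusted p = 0.0263). The Gsk3b call was lost without EED cKO array 1 or control array 2, with an adjusted p of up to 0.0631, and the Cul1 call was lost on leaving out any one of 5 arrays (EED cKO 2, 3 or 4, control 2 or 4), with an adjusted p of up to 0.0881. The Cul1 call was also lost without the dye term, with median centring and with the Y-linked covariate (limma, adjusted p = 0.0716, 0.0619 and 0.101).

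Of 8 genes listed as downstream of hedgehog signaling in various tissues, 2 were higher and 1 lower, beside 11.8% and 9.91% of all features. Bcl2, an inhibitor of apoptosis, gave 0.67, 0.95, 0.61 and 0.76 on EED cKO and 0.14, 0.38, 0.00 and 0.25 on control arrays 1 to 4. The groups did not overlap, which held with EED cKO higher for 9.63% of all features, and the log2 fold change was 0.56 with a standard error of 0.07 (limma, adjusted p = 0.00155). Sfrp1, a secreted Wnt antagonist, rose by 0.41 (limma, adjusted p = 0.00938), without overlap. With median centring both were higher but did not pass, at 0.40 (limma, adjusted p = 0.0547) and 0.27 (limma, adjusted p = 0.0771). Sfrp1 also did not pass on the scanner software's log ratio, at 1.59 (limma, adjusted p = 0.0878), or with the Y-linked covariate (limma, adjusted p = 0.0514). Ccnd2, a cyclin of the G1 phase, fell by 0.39 (limma, adjusted p = 0.025), a call lost without EED cKO array 4 (limma, adjusted p = 0.0557), control array 2 (limma, adjusted p = 0.0847) or control array 4 (limma, adjusted p = 0.0604). It was also lost on the scanner software's log ratio, with median centring, without the dye term and with the Y-linked covariate (limma, adjusted p = 0.0565, 0.0704, 0.217 and 0.0982).

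**Figure D5:**
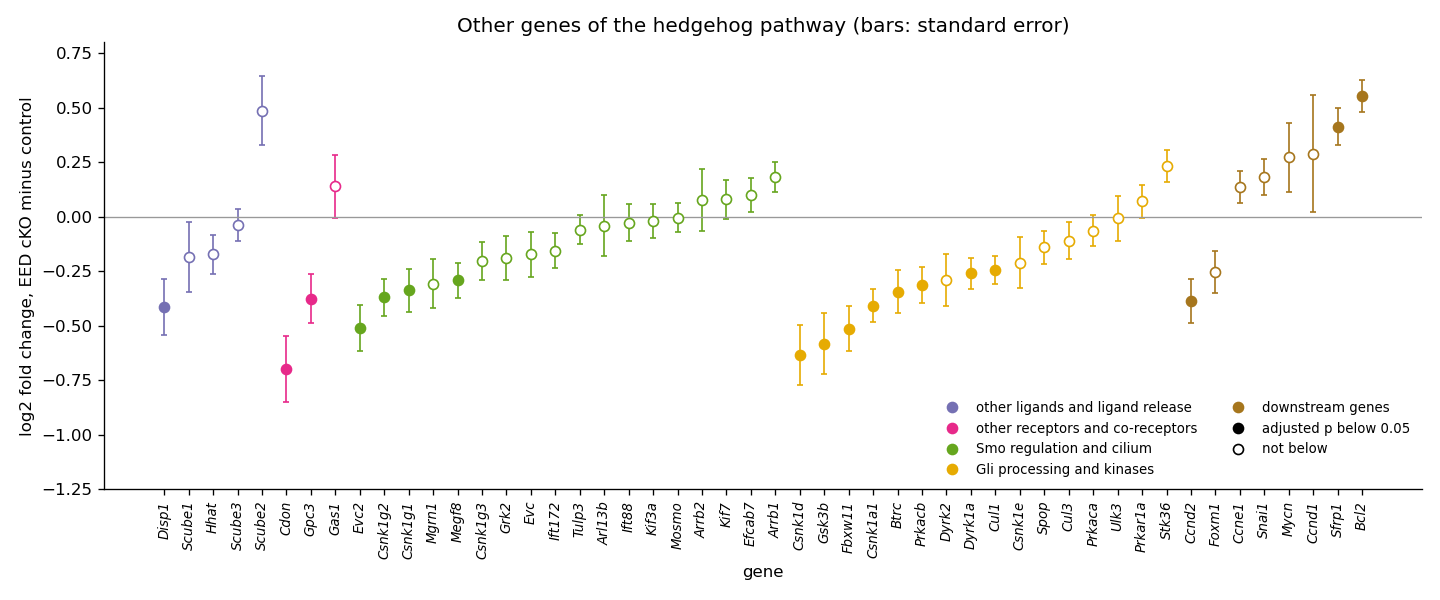
Log2 fold change of EED cKO minus control (y axis) with its standard error for 50 of the other hedgehog pathway genes tested (x axis), ordered by value within 5 lists (colors), with filled points for an adjusted p below 0.05. Lower genes, 16 of those plotted, are found in each list, and the 2 higher genes that passed, Bcl2 at 0.56 and Sfrp1 at 0.41, are both among the downstream genes.

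Markers of the cells that make or receive the ligand were read beside these results, and their counts stand beside 9.91% of all features lower and 11.8% higher. Of 13 markers of hair follicle epithelium, 12 were tested, 3 were lower and 2 higher, and Krt25 did not pass the filter. Wnt10b, a Wnt ligand of the placode, fell by 0.77 (limma, adjusted p = 0.000533), Lef1, a transcription factor of Wnt signaling, by 0.76 (limma, adjusted p = 0.00436) and the ectodysplasin receptor Edar by 0.50 (limma, adjusted p = 0.00485). Sox9, a transcription factor of follicle stem cells, rose by 0.52 (limma, adjusted p = 0.00822) and the inner root sheath keratin Krt27 by 1.33 (limma, adjusted p = 0.044). The mean ratio of the list was 1.42 to 1.77 on EED cKO and 1.29 to 1.79 on control arrays, so as a whole the list did not separate the genotypes, while some of its genes moved with Shh and Gli2 and others in the opposite direction. The part of these cells in the Shh and Gli2 results was not tested.

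Of 8 markers of dermal fibroblasts all were tested and all were well above background on the 8 arrays, with Lum higher and Postn lower, and the mean of the list was −2.21 to −2.13 on EED cKO and −2.30 to −1.99 on control arrays. Of 8 markers of the dermal papilla, 5 were tested, Crabp1 and Bmp4 were higher, and Fgf10, Corin and Itga8 did not pass the filter. The mean was −0.21 to −0.04 on EED cKO and −0.54 to −0.42 on control arrays. Among Merkel cell markers, 6 of 6 were higher, with a mean of −0.95 to −0.82 on EED cKO and −1.67 to −1.53 on control arrays. All 6 were well above background on the 4 EED cKO arrays, but Atoh1 and Isl1 on 2 and Sox2 on 0 of the 4 control arrays. Atoh1, Isl1 and Sox2 thus passed the filter through EED cKO alone. For these genes the filter favored a higher value in EED cKO. Of 4 endothelial markers 2 were tested and both were higher, while Cdh5 and Tek did not pass the filter. Of 6 markers of Schwann cells and neurons 5 were tested and Nefl was not, with Tubb3 higher and Sox10 lower. Of the epidermal lists, 3 of 6 basal markers were lower (Itga6, Itgb4 and Col17a1) and 0 of 5 suprabasal markers passed. The part of these cell types in the values of Ptch1, Gli1, Gli2 and Gli3 was not tested.

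The genes whose pattern over the 8 arrays was nearest to that of Shh were sought among the 14988 tested features with a symbol, after each gene's mean over the arrays and the dye effect were removed. Likeness was the root mean square difference of the log2 ratios, where a smaller value is more alike. The 5 nearest were Kif13a at 0.0952, Hoxb5 at 0.0982, Bptf at 0.102, Tnrc18 at 0.106 and Tmc7 at 0.106. Kif13a is a kinesin, Hoxb5 a homeobox transcription factor and Bptf a subunit of a chromatin remodeling complex. The 5 were lower in EED cKO by 0.65 to 0.79, which the choice by likeness to Shh fixes, since the genotype difference is part of the pattern. Among the hedgehog genes, Gli3 at 0.193, Ptch1 at 0.214 and Gli2 at 0.221 were nearest to Shh. Boc at 0.396, Smo at 0.412, Gli1 at 0.43 and Sufu at 0.438 were farther away. The genotype difference is part of this ranking too, so the ranking is not separate evidence that the nearer genes behave like Shh.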

How the data were processed

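RNA of 4 EED cKO and 4 control samples was read on 8 Agilent SurePrint G3 arrays of 1 slide, all listed by the labels as biological replicates. The authors scanned them and deposited Feature Extraction 12.0.1.1 output with spot and background intensities that are not normalized, above-background flags and the software's log10 ratio (Cy5 over Cy3, background subtracted, dye normalized). A deposited log2 table of sample over reference lay within 7.33e-06 of the log2 processed-signal ratio for probes with 1 spot. No spot was saturated. The number of arrays limits precision.

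The fit used the median spot intensity, the column at hand. In R 4.3.3 with limma 3.58.1, background was corrected by normexp (offset 50) on all spots. Arrays were then loess normalized with control spots left out of the fit, and swapped arrays were turned to sample over reference. Spots of a probe were averaged, with outlier spots left out at this step. A feature was tested if its sample signal was well above background on 3 or more of the 4 arrays of either genotype, using its brightest such probe. The fit had terms for genotype and dye, 19 missing values took the group mean, and p-values were adjusted over 23238 features. The fit was tested on simulated data. Names came from RefSeq (GRCm38.p6), which matched 27793 of 28167 accession-named probes, and the annotation of the array design is of an older build.

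The genes, lists and naming rule were chosen with earlier results of these data known. Named were the 9 genes on every array, Eed, the 12 listed pathway genes with the smallest p among those that passed (1 is counted in its list but not reported here), the 5 genes nearest to Shh, and list members given as checks. Disp1, Gpc3 and Gas1 were named after their values were seen.

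Arrays of equal replicate number deviated together (correlations of deviations from the group means 0.489, 0.679, 0.328 and 0.365). The numbers were therefore taken as pairs in an alternative fit and test, but not in the main ones. What the number means is not in the labels, and it also marks the dye and slide column. The correlations therefore cannot tell a pairing of samples from a shared dye or slide column. The labels give 4 to 5 h in dispase and 10 in trypsin, without a unit, and the methods give other times. Alternatives tried were other background corrections, scales, filters, probe rules and models, and each array left out in turn. Fits of every probe with no filter, within-dye values and the methods' t-test on the software's log ratio were added after seeing the data.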

Additional observations from a re-analysis of the deposited data

Results flagged for a closer look

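The within-array difference of Shh and Ptch1 on EED cKO array 2 stood apart from the other 3 EED cKO arrays. It was −0.58, while the highest of the group was −0.10, and its gap to the nearest array made up 0.881 of the whole range of the group, above the 95% critical value of Dixon's test for 4 samples. It was the only one of 28 groups of 4 arrays to stand out in this way, where chance gives about 1 in 20. Without this array the difference between genotypes was −0.25 (exact permutation test, adjusted p = 0.0952).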

How the results depend on the processing

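Shh and Gli2 were lower under all settings run and passed after adjustment under each setting that gives a p except the methods' t-test, at an adjusted p of 0.115 for Shh (−0.79) and 0.064 for Gli2 (−0.70), both with an unadjusted p below 0.05. On the scanner software's log ratio, chosen after seeing the data, that test gave an adjusted p of 0.0394 for Shh, 0.0688 for Gli2 (−1.10) and 0.3 for Gli3 (−0.56), with Smo at 0.0049. Leaving out 1 array gave −0.92 to −0.69 for Shh and −0.78 to −0.61 for Gli2. Gli3 did not pass with the sample channel alone (−0.40), without the dye term (−0.46) or in the methods' t-test (−0.46, adjusted p = 0.376), and ranged from −0.54 to −0.38 without 1 array. Ptch1 passed with normexp offset 16 (−0.48), the scanner software's log ratio or the deposited table (both −0.55) and the replicate block (−0.42), and ranged from −0.54 to −0.30 without 1 array. The sign changed for Smo with the scanner software's log ratio (0.0049), the deposited table (0.0049) and the sample channel alone (0.019), and for Gli1 with median centring (−0.19) and the sample channel alone (−0.25). Without 1 array Gli1 ranged from −0.0867 to 0.0634, Sufu from −0.0101 to 0.0804, Smo from −0.06 to −0.0017 and Boc from −0.15 to −0.04. The replicate block changed no other member's call and moved no count by over 1.5 times.

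The count of members called was 0 with a 2-fold limit and 2 to 4 without 1 array. With the limit, 1 of 8 passed at normexp offset 16 and 2 of 8 on the scanner software's log ratio. The count of other pathway genes called, 19, was 7 with median centring, 4 without the dye term, 5 with the Y-linked covariate, 0 with a 2-fold limit and 8 to 21 without 1 array. Calls over all features fell from 5034 to 2555 with median centring, 2360 without the dye term, 2802 with the Y-linked covariate, 2731 without control array 2, 2955 without EED cKO array 4 and 3346 without EED cKO array 3.

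For the within-array differences, Shh minus Ptch1 did not pass with the scanner software's log ratio or the deposited table (both −0.86), median centring (−0.22) or the sample channel alone (−0.28). Shh minus Gli1 did not pass with median centring (−0.44) or the sample channel alone (−0.45), nor did Gli2 minus Gli1 (−0.48 and −0.45). With the replicate block, pairing arrays by number, the 3 differences of −0.37, −0.80 and −0.71 did not pass (exact test, adjusted p = 0.156 each), since 4 pairs are too few. Gli3 minus Gli1 passed with no background correction (−0.54), offset 16 (−0.58), the scanner software's log ratio and the deposited table (both −0.67). Gli2 minus Gli3 passed with the latter pair (both −0.54). Without 1 array the ranges were −0.41 to −0.25 for Shh minus Ptch1, −0.88 to −0.70 for Shh minus Gli1, −0.83 to −0.65 for Gli2 minus Gli1, −0.34 to −0.09 for Gli2 minus Gli3 and −0.59 to −0.39 for Gli3 minus Gli1. Fold changes of dim probes such as Shh, Gli2, Ptch1 and Sufu depend on the offset. Hhip and the ratio of Shh to the reference were limited by signal over background.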
